A study of Zea mays with 29 samples.

Results

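Of the 40306 gene identifiers measured in maize (Zea mays) leaf, 100 are described here: genes whose share of the messenger RNA was higher in plants with a haploid genome than in plants with a diploid one, whether or not the long arm of chromosome 1, 1L, was present in extra dose. They were selected on measured levels. A run of consecutive identifiers, taken with the rule and found earlier in these data by its response to 1L copies, was left aside, which left 37119. Of these, 12782 had a mean of at least 5 CPM, counts scaled to 1000000 counted reads, over the first dosage series. The group mean CPM with 0.5 added was put on a log2 scale. Genes whose tetrasomic level lay within 0.3 of the diploid level were kept, 8287 in number and called the eligible genes below. The 100 genes with the highest value of the smaller of the haploid minus diploid and the disomic haploid minus tetrasomic differences were then taken, and they are ranked from 1 to 100 by that value. Every gene has a level in each library.

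The leaves came from plants of 6 ploidy states, sampled in a pair of dosage series that each had their own diploid controls, and the series design calls all 27 RNA libraries biological replicates. In series 1 the diploids (4 libraries) had 2 copies of 1L, the trisomics (5) had 3 and the tetrasomics (3) had 4, while the haploids (3) had 1 copy of 1L and of everything else and the disomic haploids (2) had 2 copies of 1L on a haploid background. In series 2 the monosomics (4) had 1 copy of 1L, the diploids (3) had 2 and the trisomics (3) had 3, with the rest of the genome diploid. No treatment, age or inbred background is named in the labels, which also do not say whether libraries share a parent stock.

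A haploid plant carries a single set of chromosomes, so that all genes change in dose together and the balance between genes is kept, whereas gain or loss of a chromosome arm changes the dose of its genes against all others. Maize haploids are smaller than their diploid relatives and largely sterile, and they are widely used in breeding. CPM is a share of the library, so a gene can take a larger share without more RNA per cell. In bulk leaf, a change in the number of cells of a type and a change in RNA per cell cannot be told apart.

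The files pair no identifier with a name, product, position or sequence, and 0 of the 40306 identifiers occur in the RefSeq gene table for maize. The genes are therefore given by identifier for 4 of them and by rank for the others, no role is attached to any of them, and leaf markers could not be checked. Series 1 libraries held 13199571 to 18923160 counted reads and series 2 libraries 14115560 to 19860440. The haploid and disomic haploid libraries, at 16710206 to 18443434 reads, lay inside the range of the other series 1 libraries.

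The differences that chose the genes ranged widely. In haploids minus diploids they ran from 0.72 to 5.55 on the log2 scale with a median of 1.24, or 2.37-fold, and 65 of the 100 genes exceeded 1. In disomic haploids minus tetrasomics they ran from 0.72 to 3.40 with a median of 1.16, or 2.23-fold, and 70 genes exceeded 1. The medians over all 8287 eligible genes were 0.07 and 0.06. At the edge of the selection, rank 100 had a smaller difference of 0.721 and the first gene left out had 0.7206. Among eligible genes, 51 were higher by at least 1 in both differences and 26 were lower by as much. At a size of at least 2 the numbers were 11 higher and 0 lower. These values describe the selection and were not tested. In a mean over few libraries, a single high value weighs more on the log2 scale than a single low one. Nothing is therefore read from the higher numbers beside the lower ones.

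**Figure D1:**
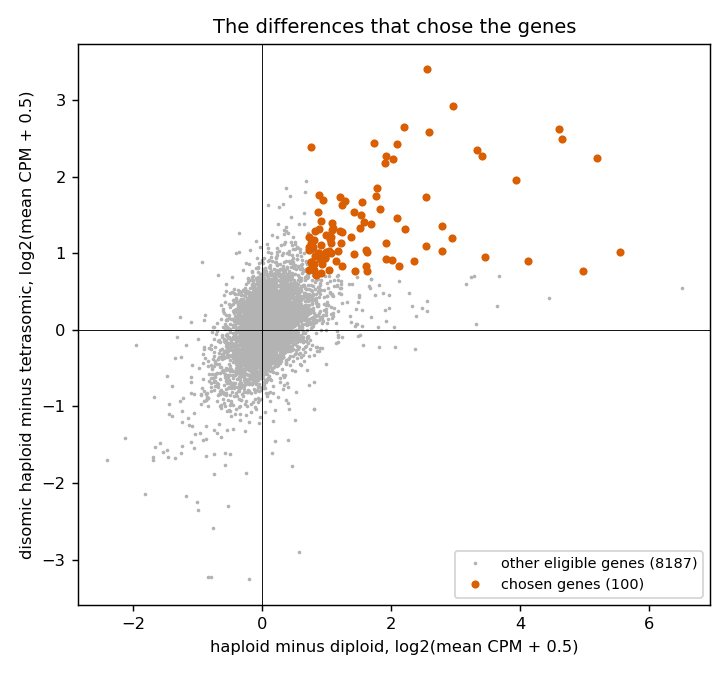
The haploid minus diploid difference (horizontal) and the disomic haploid minus tetrasomic difference (vertical), each as log2 of group mean CPM plus 0.5, for the 100 chosen genes (orange) and the 8187 other eligible genes (grey). The chosen genes fill the upper right, from 0.72 upward on both axes, and reach 5.55 in haploids but only 3.40 in disomic haploids.

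The level of the 100 genes separated the haploid genomes from diploids and tetrasomics in every library, as the choice asked for on average. Their median log2(CPM + 0.5) was 2.98, 2.83, 3.25 and 2.91 in diploid libraries 1 to 4 and 2.91, 2.99 and 3.20 in tetrasomic libraries 1 to 3. It was 4.28, 3.99 and 4.94 in haploid libraries 1 to 3 and 4.81 and 3.92 in the disomic haploid libraries. Together the genes took 0.132 to 0.172% of all counts in diploids and tetrasomics, 0.339 to 0.754% in haploids and 0.323 to 0.465% in disomic haploids. The median of the eligible genes lay between 4.12 and 4.65 in all 17 libraries, so the level of genes in general did not move with the groups in this way.

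Trisomic libraries of series 1, which the rule did not use for its differences, spread over much of that range. Their median log2 levels were 2.51, 3.25, 2.89, 2.95 and 3.93. The library labelled trisomic 5 lay just above disomic haploid library 2 and just below haploid library 2. It also had the smallest share of counts in the 10 most abundant genes, 8.98%, and the most genes with a count, 26111, of all 17 libraries, and its eligible genes stood 0.26 above the diploid mean. Disomic haploid library 1 had the next smallest such share, 9.15%, against 10.4 to 13.5% in the rest. The part of these features in the level of the 100 genes was not tested. In the run of identifiers that the rule leaves aside, library 5 stood near the other trisomics. The median of the 1290 run genes with at least 5 CPM, relative to that of eligible genes and to diploids, was 0.56 (log2) in it, 0.56 to 0.60 in the other trisomics, 0.95 to 0.97 in tetrasomics, 0.97 and 1.01 in disomic haploids and -0.01 to 0.07 in haploids. The run was found earlier in these data by its response to 1L copies, so these values are no independent check of the label. The positions of these identifiers could not be checked.

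**Figure D2:**
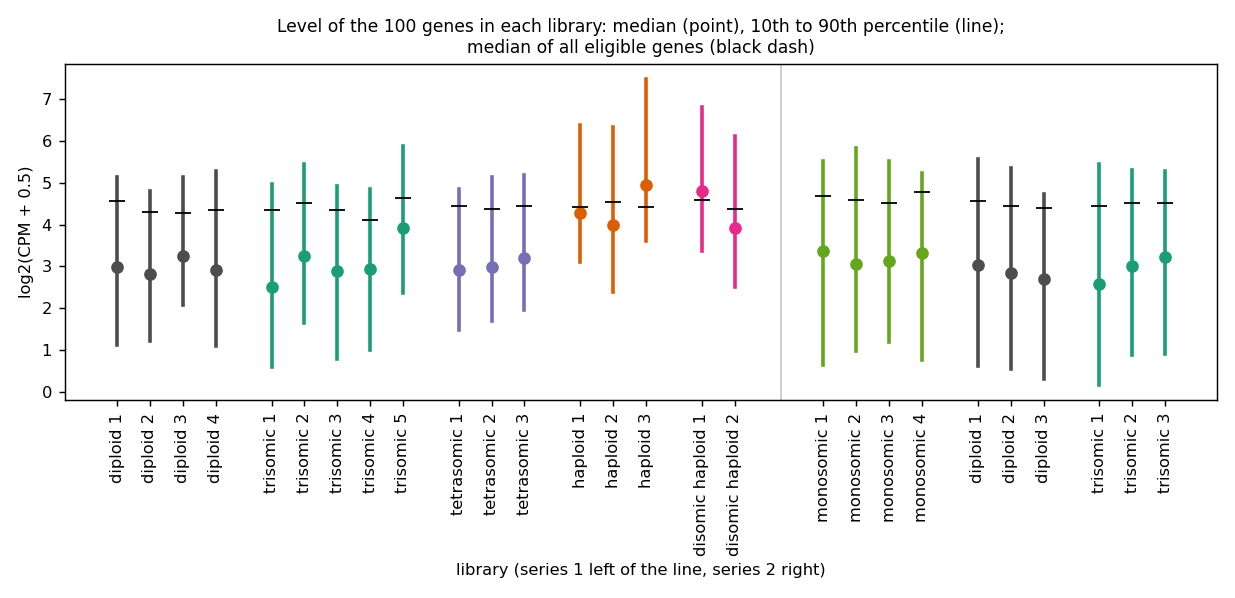
Level of the 100 genes in each of the 27 libraries as log2(CPM + 0.5): the point is the median over genes, the line runs from the 10th to the 90th percentile, and the black dash is the median of the 8287 eligible genes. Haploid and disomic haploid medians lie between 3.92 and 4.94, diploid and tetrasomic medians between 2.83 and 3.25, and trisomic library 5 of series 1 stands at 3.93.

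Most of the 100 genes were higher in each haploid-genome library than in the diploids, but not by equal amounts. Relative to the diploid mean of each gene, 98, 92 and 98 genes were above 0 in haploid libraries 1 to 3, with median differences of 1.12, 0.89 and 1.85. In the disomic haploid libraries 100 and 99 were above 0, with medians of 1.58 and 0.90. Eligible genes had medians of 0.05, 0.16 and 0.01 in the haploid libraries and 0.21 and 0.01 in the disomic haploid libraries. Their share above 0 was not counted. In 60 genes all haploid libraries lay above all diploid libraries, against 6.15% of eligible genes. In 91 genes both disomic haploid libraries lay above all tetrasomic ones, against 19.1%. All 5 haploid-genome libraries lay above all 7 diploid and tetrasomic ones in 49 genes, against 1.46%, and above all 12 other series 1 libraries in 13, against 0.567%. The last count was 33 without trisomic library 5, against 0.977% of eligible genes. The selection used these libraries, so nothing is read from the shares.

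Haploid library 3 carried the highest haploid value in 72 of the 100 genes, against 31.6% of eligible genes, and it was the highest of all 17 libraries in 53. Disomic haploid library 1 was the highest of the 17 in 27 genes, haploid library 2 in 11, haploid library 1 in 4, trisomic library 5 in 3, and disomic haploid library 2 and trisomic library 1 in 1 each. The rule favours haploid-genome libraries, and shares of eligible genes were not taken for the counts over 17 libraries, so nothing is read from them. Disomic haploid library 1 was the higher disomic haploid library in 86 of the 100 genes, against 73.1% of eligible genes. In 18 genes 1 haploid library held over 2/3 of the haploid sum, against 0.627% of eligible genes. A rule on group means favours genes with 1 high library, so nothing is read from this share. Without haploid library 3 the median haploid minus diploid difference of the same genes was 1.02, or 2.02-fold, with 99 genes above 0. Eligible genes then had a median of 0.09. Without disomic haploid library 1 the median disomic haploid minus tetrasomic difference was 0.91, with 99 above 0, against a median of -0.05 in eligible genes. The libraries left had themselves taken part in the choice, so these values are no independent check of it.

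The genes were grouped by the haploid library in which each was highest, so the high value in that library follows from the grouping. The 72 genes highest in library 3 had median differences from the diploid mean of 1.26, 0.73 and 2.26 in haploid libraries 1 to 3, and in trisomic libraries 1 to 5 they stood at -0.49, 0.48, -0.23, -0.06 and 1.02. The 21 genes highest in library 2 had 0.80, 1.70 and 0.83 in the haploid libraries and 0.64 in trisomic library 5. The 7 genes highest in library 1 had 1.27, 0.90 and 0.77 in the haploid libraries and -0.18 in trisomic library 5. Trisomic library 5 was thus above the diploid mean in both larger groups, and furthest in the genes that haploid library 3 led. Eligible genes had a median of 0.26 in that trisomic library.

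**Figure D3:**
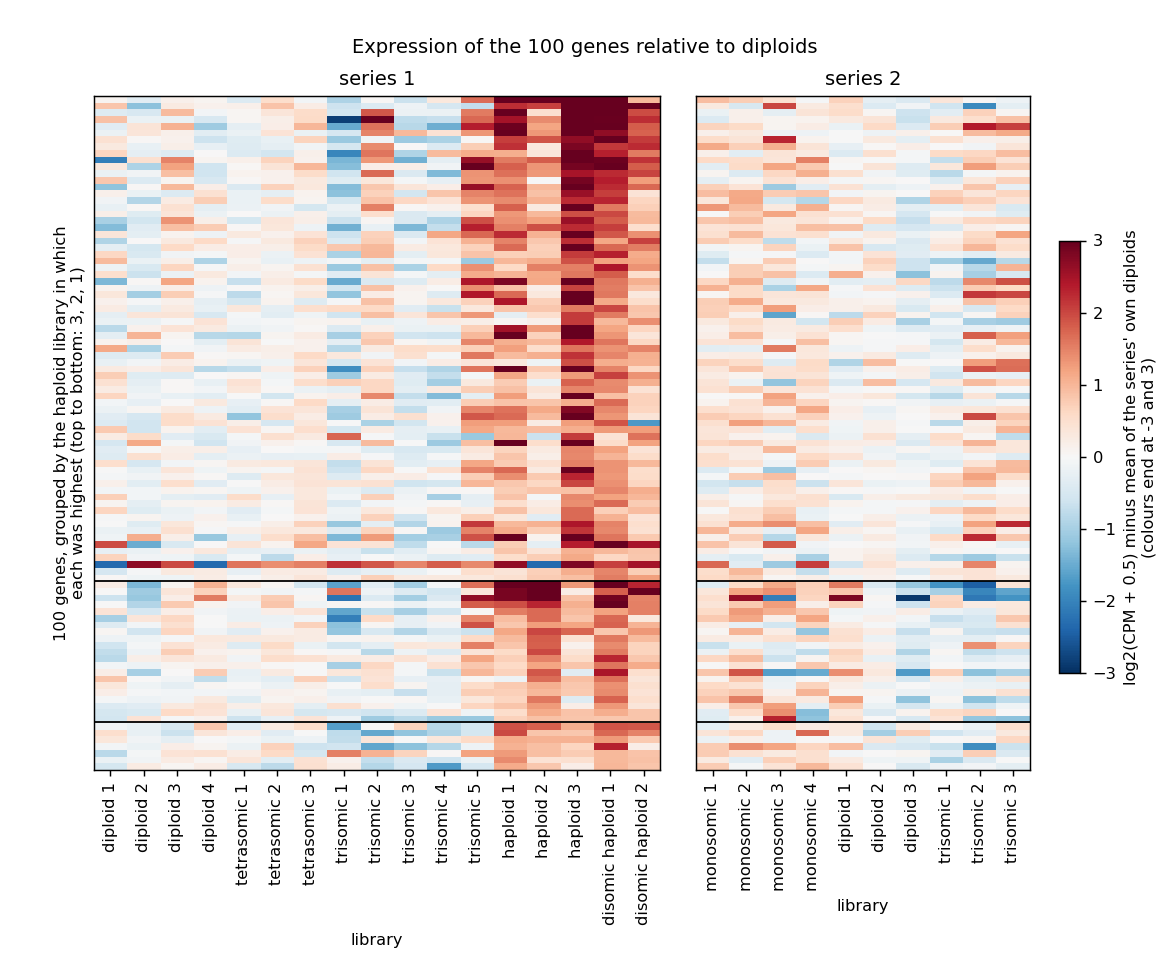
Difference of each of the 100 genes (rows) from the mean of the diploid libraries of its own series in each library (columns), as log2(CPM + 0.5), with red higher and blue lower and colours ending at -3 and 3. Rows are grouped by the haploid library in which the gene was highest (72, 21 and 7 genes for libraries 3, 2 and 1). Haploid and disomic haploid columns are mostly red, trisomic column 5 of series 1 is red for 83 genes, and series 2 is pale. In that trisomic library the eligible genes had a median of 0.26.

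The identifier with the highest selection value, Zm00004b012465, stood at 7.25, 2.08, 6.47 and 13.2 CPM in the diploid libraries, at 7.78, 6.40 and 4.04 in the tetrasomic libraries, at 68.8, 94.1 and 15.8 in the haploid libraries and at 66.8 and 31.7 in the disomic haploid libraries. All haploid-genome libraries were above all diploid and tetrasomic ones, though haploid library 3 came close to the highest diploid. Series 1 trisomics stood at 1.68, 4.81, 2.77, 5.83 and 20.4 CPM, and library 5 thus exceeded haploid library 3. The mean was 7.24 ± 4.56 (SD, n = 4) in diploids against 59.6 ± 39.9 (SD, n = 3) in haploids. Tetrasomics had a mean of 6.07 ± 1.89 (SD, n = 3), against 49.3 ± 24.8 (SD, n = 2) for disomic haploids. In series 2 it stood at 11.3, 21.9, 32.7 and 24.5 CPM in monosomics, at 44.2, 10.8 and 6.44 in diploids and at 3.85, 2.27 and 19.5 in trisomics. The series 2 groups overlapped, and 1 diploid library was the highest of the 10.

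The second, Zm00004b011102, had its highest levels in haploids. It stood at 0.504, 0.268, 0.563 and 0.509 CPM in diploids, at 0.221, 0.883 and 0.398 in tetrasomics, at 15.2, 10.4 and 43.1 in haploids and at 9.91 and 1.38 in disomic haploids. Diploid values rest on 4 to 10 counts per library and haploid values on 177 to 753. The means were 0.461 ± 0.131 CPM (SD, n = 4) in diploids and 22.9 ± 17.6 (SD, n = 3) in haploids, with no overlap. Series 1 trisomics stood at 0, 0.476, 0.111, 0.682 and 2.53 CPM, and the last of these, library 5, was above disomic haploid library 2. In series 2 every library lay between 0.115 and 1.07 CPM, and the monosomic, diploid and trisomic groups overlapped.

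Of the 13 genes whose haploid-genome libraries exceeded the 12 others of series 1, rank 4 had the largest selection value. It stood at 6.93, 1.27, 4.5 and 4.01 CPM in diploids, at 4.14, 7.06 and 4.38 in tetrasomics, at 18.8, 16.6 and 45.6 in haploids and at 59.1 and 60.2 in disomic haploids. Rank 81 showed a small and even difference, at 31.6 to 36.0 CPM in diploids, 30.6 to 42.2 in tetrasomics, 56.7, 59.8 and 61.7 in haploids and 93.6 and 72.5 in disomic haploids. The 5 trisomic libraries stood at 2.02 to 3.21 CPM for rank 4 and at 25.1 to 34.2 CPM for rank 81, and trisomic library 5 was the lowest of the 5 for rank 4.

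Haploids and disomic haploids did not hold the genes at the same level one by one. Over the 100 genes the disomic haploid minus haploid difference ran from -4.79 to 1.66 with a median of 0.01; 54 genes were above 0, 15 below -1 and 2 above 1. The 3 lowest were ranks 49, 89 and 67, all led by haploid library 3. Rank 49 stood at 41.5, 1.11 and 113 CPM in the haploid libraries, at 2.00 and 0.778 in the disomic haploids and at 0.0636 to 1.54 in diploids. Rank 67 stood at 92.3, 11.6 and 395 CPM in haploids, at 11.9 and 19.1 in disomic haploids and at 5.09 to 17.9 in diploids, so that haploid library 2 was inside the diploid range. Rank 90 was the opposite case, with 5.91, 2.69 and 19.2 CPM in haploids and 39.7 and 21.0 in disomic haploids, while diploid library 1 reached 14.4.

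Rank 96 was chosen although 3 libraries had no read of it. Its count was 0 in diploid libraries 1 and 4 and in haploid library 2, where 3 counts would be 0.189, 0.191 and 0.176 CPM. In the other series 1 libraries it stood between 6.12 and 17.0 CPM, with 15.7 and 9.51 in diploid libraries 2 and 3 and 15.5 and 17.0 in haploid libraries 1 and 3. Rank 96 was singled out after its values were seen, as were ranks 4, 49, 67, 81 and 90.

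To see how far the difference carries over to a library that took no part in the choice, the 100 genes were chosen again without each library in turn and then measured in it. In haploid libraries 1 to 3 the median difference from the diploids was 0.88, 0.67 and 0.96, against 1.33, 1.33 and 0.99 in the haploid libraries that chose the genes, and 97, 84 and 86 of the 100 were above 0. In disomic haploid library 1 it was 1.18, against 0.94 in the library that chose, with 93 above 0. In disomic haploid library 2 it was 0.51, against 1.36, with 91 above 0. Eligible genes had medians of -0.05 to 0.14 in these left-out libraries. Of eligible genes, 54.3, 67.0 and 49.0% were above 0 in haploid libraries 1 to 3. In disomic haploid libraries 1 and 2, 66.3 and 42.7% were. For left-out diploid and tetrasomic libraries the haploid side was higher by a median of 1.04 to 1.81, with 96 to 99 genes above 0. For these, eligible genes had medians of -0.07 to 0.19, with 42.2 to 72.2% above 0. The left-out library's level is independent of the choice, while the other side of the difference is not.

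**Figure D4:**
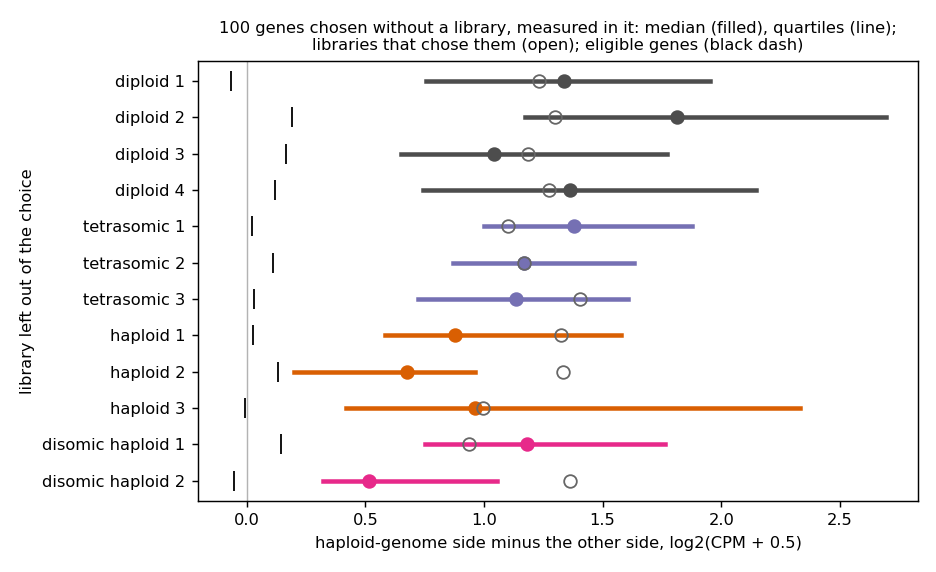
Lists of 100 genes chosen without 1 library, measured in that library: filled points are the median over genes of the haploid-genome side minus the other side on the log2(CPM + 0.5) scale, coloured lines the quartiles, open circles the median in the libraries that chose the list, and black dashes the median of the eligible genes. All 12 filled points lie above 0, the lowest at 0.51 for disomic haploid library 2.

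In edgeR's quasi-likelihood test with Benjamini-Hochberg adjustment over all genes tested, 24 of the 100 genes were called higher in haploids than in diploids, where 1.37% of all 22435 genes were, and 5 in disomic haploids against tetrasomics, where 0.339% were. Of the 100, 3 were called in both and 74 in neither. The rule used both contrasts, so the counts add nothing to the selection. They also turned on single libraries. The haploid count was 6, 8, 11 and 7 without diploid libraries 1 to 4 and 11, 42 and 10 without haploid libraries 1 to 3. The disomic haploid count was 0, 0 and 1 without tetrasomic libraries 1 to 3, 8 without haploid library 2, and 1 and 9 without disomic haploid libraries 1 and 2, where the library left is assumed to vary like the other groups.

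Series 1 trisomics carry an extra copy of 1L in an otherwise diploid genome, and the test called none of the genes in them. Trisomic minus diploid differences of group means had a median of 0.21, with 72 of 100 genes above 0, against 0.02 and 55.7% in eligible genes. Without trisomic library 5 the median was -0.089, with 40 above 0, so its sign rests on that library. No gene had all trisomic libraries above all diploids, against 0.748% of eligible genes, and none had all below, against 0.64%, or 4 genes below without trisomic library 5, against 2.33%. In edgeR 0 of 100 were called in either direction, where 1.52% of all genes were, with 1 higher and 6 lower at an unadjusted p below 0.05, close to the 1.3% and 6.55% of eligible genes. DESeq2 called 4 lower and 0 higher, against 1.18% and 0.133% of eligible genes. The edgeR count was 1 without diploid library 1, trisomic library 1 or haploid libraries 1 or 2, any 1 of them left out. The diploid libraries on one side of this comparison had been used by the rule.

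Series 2 shares no library with the selection, and there the genes stood at lower and less distinct levels. Their median log2(CPM + 0.5) was 3.36, 3.06, 3.14 and 3.33 in monosomics, 3.04, 2.86 and 2.70 in diploids and 2.59, 3.02 and 3.23 in trisomics. The highest of these, 3.36, was below every haploid-genome library of series 1, but the series were scaled separately, and no test was made across them. Monosomic and diploid medians did not overlap, while trisomic ones overlapped both. The genes took 0.168 to 0.251% of counts in monosomics and 0.107 to 0.236% in diploids.

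Monosomics share the single copy of 1L with haploids, but not the single set of all other chromosomes. Monosomic minus diploid differences had a median of 0.37 and 87 of 100 genes were above 0, against 0.20 and 81.4% in eligible genes. With TMM scaling in edgeR the medians were 0.06 over eligible genes and 0.27 over the chosen ones. All monosomic libraries lay above all diploids in 19 genes, against 10.6% of eligible genes, and below in 0, against 1.01%. All 100 genes passed edgeR's filter on low counts in series 1, and 96 passed it in series 2, all but ranks 5, 8, 9 and 90. Of these 1 was called higher, where 0.893% of all genes were, and 0 were called lower, where 4.61% were. At an unadjusted p below 0.05 the numbers were 6 higher and 1 lower, against 4.46% and 3.36% of eligible genes. DESeq2 called 3 higher, against 1.24%. The call was lost without diploid library 1, and 2 genes were called without monosomic library 3.

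The called gene was rank 19. It stood at 57.7, 67.1, 51.6 and 54.4 CPM in monosomics, at 28.5, 31.9 and 30.5 in diploids and at 49.1, 39.1 and 47.6 in trisomics. Both aneuploid groups lay wholly above the diploids. The log2 fold change in monosomics was 0.78 (SE 0.16, edgeR adjusted p = 0.0129). In series 1 the same gene stood at 19.4 to 36.0 CPM in diploids and 34.8 to 160 in haploid genomes, and trisomic library 5 reached 74.2.

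Trisomic minus diploid differences in series 2 had a median of 0.13, with 63 of 100 genes above 0, against 0.01 and 53.0% in eligible genes. All trisomic libraries lay above all diploids in 10 genes, against 6.59% of eligible genes, and below in 5, against 4.2%. In edgeR 0 of 96 were called in either direction, where 0.266% of all genes were, with 13 higher and 4 lower at an unadjusted p below 0.05, against 1.07% and 1.61% of eligible genes. DESeq2 called 1 higher and 1 lower, against 0.0845% and 0.109%. Without trisomic library 1, edgeR called 1. The extremes were ranks 12, 3 and 1 at -2.02, -1.59 and -1.22 and ranks 7, 37 and 89 at 1.81, 1.60 and 1.39. Rank 12 was uneven within every group of series 2, at 21.0 to 558 CPM in monosomics, 11.6 to 641 in diploids and 19.9 to 138 in trisomics. Rank 37 stood at 2.38, 16.1 and 14.8 CPM in trisomics and 3.10 to 3.68 in diploids, so the difference came from trisomic libraries 2 and 3.

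A linear trend over 1, 2 and 3 copies of 1L was called rising in 3 of the 96 genes, where 9.92% of all genes were, and falling in 5, where 5.75% were. All genes include the run that follows 1L itself, and in eligible genes 1.96% rose and 3.83% fell. At an unadjusted p below 0.05 there were 8 rising and 19 falling, against 5.52% and 11.9% of eligible genes. The 8 calls became 5 without trisomic library 2. The rising genes were ranks 76, 48 and 7, with log2 changes per copy of 0.61, 0.62 and 1.11 (edgeR adjusted p = 0.0036, 0.0154 and 0.0420). The falling ones were ranks 3, 73, 22, 33 and 58, with changes of -1.50 to -0.30 (edgeR adjusted p = 0.0051 to 0.0270).

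The steepest fall was that of Zm00004b028280, rank 3, at 2.76, 5.34, 6.16 and 3.68 CPM in monosomics, 4.05, 1.81 and 1.15 in diploids and 0.793, 0.170 and 0.364 in trisomics. All trisomic libraries were below all others, while monosomics and diploids overlapped. The change per copy was -1.50 (log2, SE 0.31, edgeR adjusted p = 0.0051), and trisomic values rest on 3 to 14 counts. In series 1 it stood at 0.536 to 3.05 CPM in diploids, at 15.2, 24.5 and 2.06 in haploids and at 7.07 and 16.9 in disomic haploids. Haploid library 3, the highest for most of the 100 genes, was here inside the diploid range. Series 1 trisomics stood at 6.18, 1.48, 1.16, 0.985 and 2.27 CPM, which overlapped the diploids.

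Zm00004b031323, rank 73, stood at 15.1, 23.9, 20.3 and 13.9 CPM in monosomics, 17.0, 6.34 and 5.98 in diploids and 5.32, 2.04 and 5.34 in trisomics. Trisomics were again below all other libraries, and 1 diploid library lay among the monosomics. The change per copy was -1.0 (log2, SE 0.21, edgeR adjusted p = 0.0058). In series 1 trisomics stood at 3.28 to 9.41 CPM, diploids at 9.17 to 12.3, haploids at 22.3, 20.1 and 16.8 and disomic haploids at 54.8 and 12.2. The diploid mean was 10.6 ± 1.35 CPM (SD, n = 4). Trisomics had a mean of 5.89 ± 2.41 (SD, n = 5), whereas haploids reached 19.7 ± 2.76 (SD, n = 3). The lower disomic haploid library lay inside the tetrasomic range of 6.71 to 17.4.

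**Figure D5:**
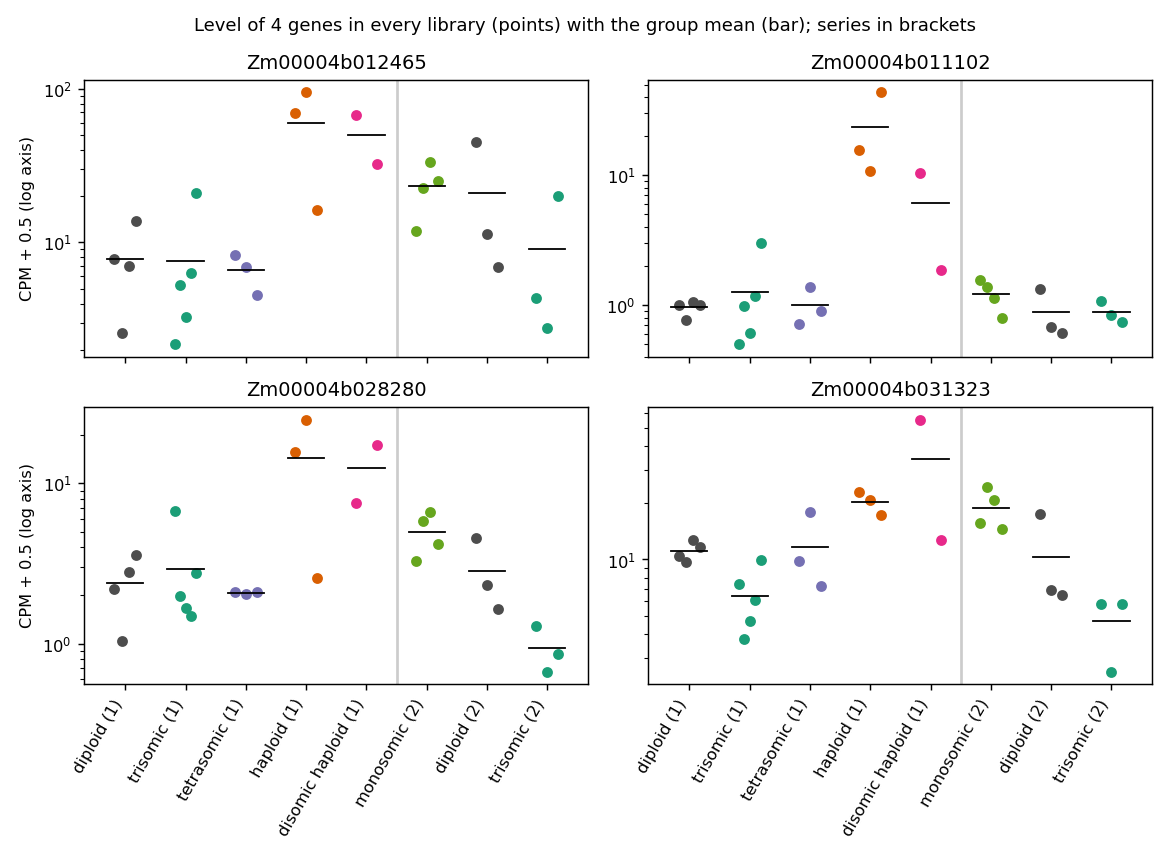
Level of 4 of the genes in every library, as CPM plus 0.5 on a log axis, with a bar at the group mean and the series in brackets. Zm00004b012465 and Zm00004b011102 have all haploid and disomic haploid libraries above the diploid and tetrasomic ones of series 1, and Zm00004b028280 and Zm00004b031323 have their trisomic libraries of series 2 below all other libraries of that series.

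Apart from their levels, the genes differed from other eligible genes in spread and in length. Their median SD over the 5 series 1 trisomic libraries was 0.68 on the log2 scale, against 0.30 in the 8187 other eligible genes, and 89 of 100 exceeded that median. In these libraries their median difference from the diploid mean ran from -0.49 in library 1 to 0.78 in library 5. Eligible genes had -0.02 and 0.26 there. The SD without library 5 was not computed. Within the groups of series 2, whose libraries took no part in the choice, the SD was 0.47 against 0.24, with 93 of 100 above. The genes stood lower in series 2 than other eligible genes, and spread grows at low counts, so genes were also compared at like levels in series 2 itself, a step chosen after seeing the data. At a series 2 mean below 2 CPM, 15 chosen genes had a median SD of 0.55 against 0.51 in 21 others. At 2 to 5 CPM, 19 chosen genes had 0.43 against 0.34 in 161 others. At 5 to 10 CPM, 21 chosen genes had 0.40 against 0.27, and at 10 to 20 CPM 21 had 0.46 against 0.25. At 20 to 50 CPM 18 had 0.39 against 0.23, and at 50 CPM or more 6 had 0.69 against 0.23. The larger spread was thus seen from 2 CPM up, while at the lowest level the SDs were close. The rule took the largest differences between means over few libraries, which favours genes that vary between libraries. The larger spread is therefore a description and was not tested.

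The gene lengths implied by the deposited RPKM (counts scaled by gene length and library total) had a median of 2460.5 bp in the 100 genes, with quartiles of 1354 and 4729, against 4787 bp, with quartiles of 2922 and 7805, in the other eligible genes. The quartile ranges overlapped. Per length, the mean level in diploids had a median of 3.11 RPKM in the chosen genes and 4.46 in the others. The rule took differences from the diploid level, so a low diploid level favours selection. Nothing is therefore read from this gap. The most abundant per length in diploids were ranks 86, 11, 28, 42 and 30, at 93.6, 52.2, 51.3, 46.7 and 35.5 RPKM. Over all 17 libraries the chosen genes had a median of 5.57 RPKM, a value that includes the rise they were selected on.

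Some of the genes are close in identifier order. Ranks 2 and 15, ranks 24 and 56 and ranks 8 and 28 have consecutive identifiers, and ranks 10 and 55 differ by 2. Rank 15, next to Zm00004b011102, stood at 8.13, 6.27 and 14.9 CPM in haploids and 12.5 and 10.8 in disomic haploids, against 1.34 to 4.67 in diploids. Ranks 8 and 28 were both highest in haploid library 3, at 63.3 and 449 CPM, but rank 8 was at 0.0636 to 0.402 in diploids and rank 28 at 31.8 to 70.0. Whether such neighbours are near-identical copies that share reads is not given by the tables used here, so their separate values are uncertain. In bins of 5000 identifiers the chosen genes made up 0.786 to 1.67% of eligible genes, with no bin empty.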

How the data were processed

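Levels were measured in 27 poly(A)-enriched RNA libraries of maize leaf (per the labels, by TRIzol extraction and TruSeq kits). Cuffdiff, Cufflinks, TopHat and Bowtie are named in the submitters' processing notes, with no version or role. For strand handling and the genome build nothing is given in the sources used here. Deposited tables hold raw counts per gene model and library, and RPKM that the authors made from them, and the ratio of count to RPKM gave 1 constant length for each gene after division by the library total. The DNA table was not used. The reads carry no molecular identifiers, so floors of 3 counts cover counting error only.

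CPM was computed from the count totals. All libraries of a series entered 1 fit, with group or 1L copies as the only term, in edgeR 4.0.16 (R 4.3.3) with TMM scaling, filterByExpr and robust quasi-likelihood F-tests. A gene was called at a two-sided p under 0.05 after Benjamini-Hochberg adjustment over all genes tested (22435 in series 1, 21825 in series 2). The biological coefficient of variation was 0.318 and 0.273. P-values measure the spread between these libraries. The procedure was checked on counts with known changes. DESeq2 1.42.0, other scalings, filters, blocks and left-out libraries were tried as alternatives.

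The 100 genes, the lists and the tests were chosen with earlier results of these data known. Without names, the rule for naming allowed 2 identifiers that rose, those with the highest selection value and no overlap of groups, and 2 that fell, those with the steepest called fall in series 2. Other genes are given by rank. Product lists and leaf markers could not be tested, since 0 identifiers matched.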

Additional observations from a re-analysis of the deposited data

Results flagged for a closer look

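In groups of 4 or more libraries, the median level of the 100 genes and the levels of the 4 identified genes were searched for a library far from the rest of its group, in 15 groups in all. There were 3 such values, all in series 1 trisomics. Chance alone would mark about 5% of groups if values were normally distributed and groups independent. The levels of the 4 genes were searched as CPM without a log scale, and the groups share libraries. No excess over chance is therefore read from the flags. Zm00004b012465 stood at 20.4 CPM in trisomic library 5 and at 1.68 to 5.83 in the other trisomics. Zm00004b011102 stood at 2.53 CPM in the same library, 40 counts, and at 0 to 0.682 in the others. Zm00004b028280 stood at 6.18 CPM in trisomic library 1 and at 0.985 to 2.27 in the others.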

How the results depend on the processing

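The haploid and disomic haploid fold changes of Zm00004b012465 and Zm00004b011102 and the series 2 trends of Zm00004b028280 and Zm00004b031323 kept their direction under the alternatives tried. Their other fold changes were not run. So did the median log2 fold changes in series 2, at 0.23 to 0.35 in monosomics and 0.0026 to 0.21 in trisomics. With trisomic library 5 left out, a step added after seeing the data, the median series 1 trisomic minus diploid difference turned from 0.21 to -0.089; without trisomic library 1 it was 0.32. The counts of called genes moved more. Calls in haploids numbered 24, or 48 with DESeq2, 1 with the compared libraries alone and 6 to 42 with a library left out. Calls in disomic haploids numbered 5, or 17 with DESeq2, 33 with the compared libraries alone and 0 to 9 with a library left out. DESeq2 called 4 genes in series 1 trisomics, 3 in monosomics, 2 in series 2 trisomics and 14 for the trend, where it called 4.54%, 7.26%, 1.71% and 17.0% of all genes tested. In haploids and disomic haploids it called 3.03% and 1.27% of all genes higher. Leaving out a library gave 0 to 1, 0 to 2, 0 to 1 and 5 to 10. The cause was not tested. Zm00004b012465 lost its haploid call in 16 of 22 alternatives, while the trend calls of Zm00004b028280 and Zm00004b031323 held in all 15.

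Replicate numbers were not taken as pairs in the main fit. Of 27 same-number pairs in series 1, 8 had deviations correlated above 0.1 (r from -0.34 to 0.34). Of 9 in series 2, 2 did. A library was most like the one of its own number in 17 of 54 cases in series 1 and 8 of 18 in series 2. No chance share was set beside these counts, so whether the numbers pair the libraries was not tested. With the number as a replicate block 9 genes were called in haploids, 5 in disomic haploids, 0 in both trisomic groups, 2 in monosomics and 11 for the trend. With the S number of series 2 as a replicate block, 0 were called in monosomics and 5 for the trend.

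The choice itself was sensitive. Of the 100 genes, 60 were chosen again with group medians, 40 with a minimum of 1 CPM, 48 and 54 with tetrasomic limits of 0.15 and 0.6, and 65 to 89 with a library left out. Depth limits genes at a few counts per library.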
